A study of Mus musculus with 23 samples.

Results

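The set described here holds 35 genes that mark leukocytes, monocytes and tissue macrophages, picked by gene symbol from the 54354 rows of the count table; all 35 symbols were found. They were grouped by role into 7 pan-leukocyte genes, 15 myeloid and monocyte genes and 13 tissue macrophage genes. RNA was sequenced in bulk from 11 libraries of sorted GFP-positive cells and 12 libraries of sorted GFP-negative cells. Per the labels, every library carries the Basp1-GFP genotype and comes from colon; the tumours were grown from AKP-tdT organoids with the Basp1-eGFP-DTR reporter, placed orthotopically in the colon of mice, and both fractions carry these labels alike. The labels state no age, strain or immune status of the recipient mice and no diet, and they do not say which cells the GFP-negative fraction holds. One label names organoids as the RNA source whereas the study text describes digested primary tumours, and this could not be settled. The labels do not tie libraries to separate animals. A p-value here therefore weighs a difference against library-to-library spread, part or all of which may be technical.

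Macrophages are phagocytes of the innate immune system that arise from circulating monocytes or from embryonic precursors and settle in most tissues, the colon and its tumours included. Their survival depends on the receptor encoded by Csf1r, their identity on the transcription factor PU.1 encoded by Spi1, and their recruitment from blood in part on the chemokine receptor encoded by Ccr2. In bulk samples, fewer cells of a type and less RNA per cell cannot be told apart.

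Library totals ran from 25458 to 4238877 counts, and 4 libraries (GFP-positive 4 and GFP-negative 4, 5 and 12) held fewer than 100000. A gene with no count in a library could have been present at up to 3 counts, which equals 0.708 CPM in the deepest and 118 CPM in the shallowest library (CPM, a gene's counts over 1000000 counts of its library). Library numbers in the labels form 2 runs, called library set 1 (5 GFP-positive and 6 GFP-negative libraries) and library set 2 (6 and 6), which may be a batch. Basp1 itself averaged 57.8 ± 32.9 CPM (SD, n = 11) in the GFP-positive fraction and 33.4 ± 27.03 CPM (SD, n = 12) in the GFP-negative fraction. GFP-positive 3 stands apart from every other library in the genes described here, and results that rest on it are given with and without it.

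All 35 genes appeared in both fractions, but at very different levels. The summed level of the set was 468.7 to 2145 CPM in 10 of the 11 GFP-positive libraries (median 704.9 CPM), against 832.4 to 11051 CPM in the 12 GFP-negative libraries (median 3905 CPM). The ranges overlapped through the GFP-negative libraries of set 1. The remaining library, GFP-positive 3, reached 45840 CPM, 4.58% of its counts (95% Wilson interval 4.556% to 4.612%, counting error only), the highest sum of all 23 libraries. It held 97069 counts of these genes in a total of 2117579.

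Library names start with an identifier that joined both fractions in 10 cases, although the labels do not say that it marks one animal. In 8 of these it joined 1 library to 1 other. GFP-positive 4 bears a joint name of which GFP-negative 4 and 5 bear a part each, and these were pooled as 1 case, the one with the smallest difference. GFP-positive 2 and 7 share an identifier across the library sets and were averaged against GFP-negative 8. Within these identifiers the summed level was lower in the GFP-positive library in 9 of 10. The size of the difference ran from 1.90-fold to 21.0-fold. The exception joined GFP-positive 3, at 45840 CPM, to GFP-negative 6, at 832.4 CPM, the lowest GFP-negative sum, a 55.1-fold difference in the other direction. A mislabelled or mis-sorted library was not tested for.

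**Figure D1:**
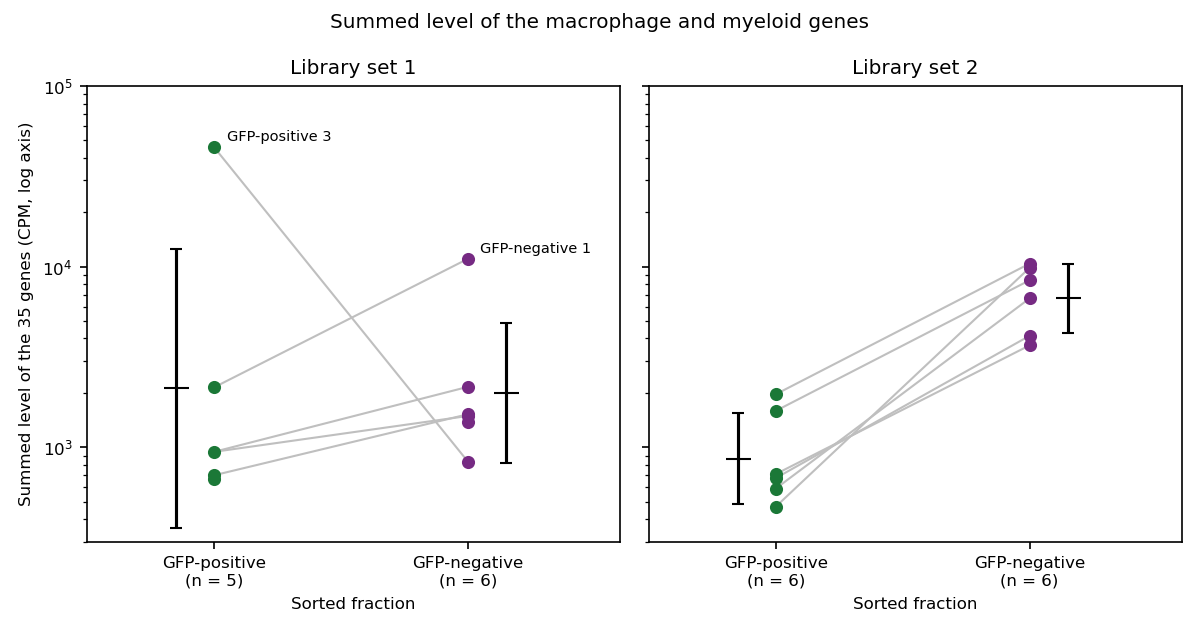
Summed level of the 35 genes in each library on a log axis, by library set, with GFP-positive left of GFP-negative. Grey lines join libraries of a set that share an identifier, and black bars give the mean and SD on the log scale. The set 2 fractions do not overlap (468.7 to 1965 CPM against 3667 to 10397 CPM), while in set 1 GFP-positive 3 and GFP-negative 1 lie far above the other libraries.

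How many of the genes were seen depended on depth and level together. GFP-positive libraries held a count for 13 to 35 of the 35 genes and GFP-negative libraries for 17 to 35. Scaled to the same 25458 counts, 33.9 of the genes would be expected in GFP-positive 3, 6.49 to 16.7 in the other GFP-positive libraries and 10.01 to 29.7 in the GFP-negative libraries. Lyz2, Cd14, Apoe, C1qb, Ctsc and Lgmn had a count in every library. At the other end, Ccr2 had a count in 5 of 11 GFP-positive and 4 of 12 GFP-negative libraries, and Spi1 in 7 of 11 and 5 of 12.

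The role groups were not seen evenly in each library. GFP-positive 1, 3 and 11 held all 7 pan-leukocyte, all 15 myeloid and monocyte and all 13 tissue macrophage genes, as did GFP-negative 1, 7 and 8. GFP-positive 8 lacked only Ccr2 and Cybb, and GFP-positive 10 only Itgb2 and Ncf1. GFP-positive 7 held 5 of the 7 pan-leukocyte, 5 of the 15 myeloid and monocyte and 8 of the 13 tissue macrophage genes in a total of 626754 counts, and it had no count of Csf1r, Spi1, Itgam, Adgre1 or C1qa. GFP-positive 9, with 857615 counts, lacked 10 genes, Cd68 and Mrc1 among them. By contrast, GFP-negative 10 lacked only Ccr2 in a total of 116211 counts. GFP-negative 9 lacked only Ccr2 and Spi1. The shallow libraries GFP-positive 4 and GFP-negative 4 and 5 showed 13, 17 and 17 genes.

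**Figure D2:**
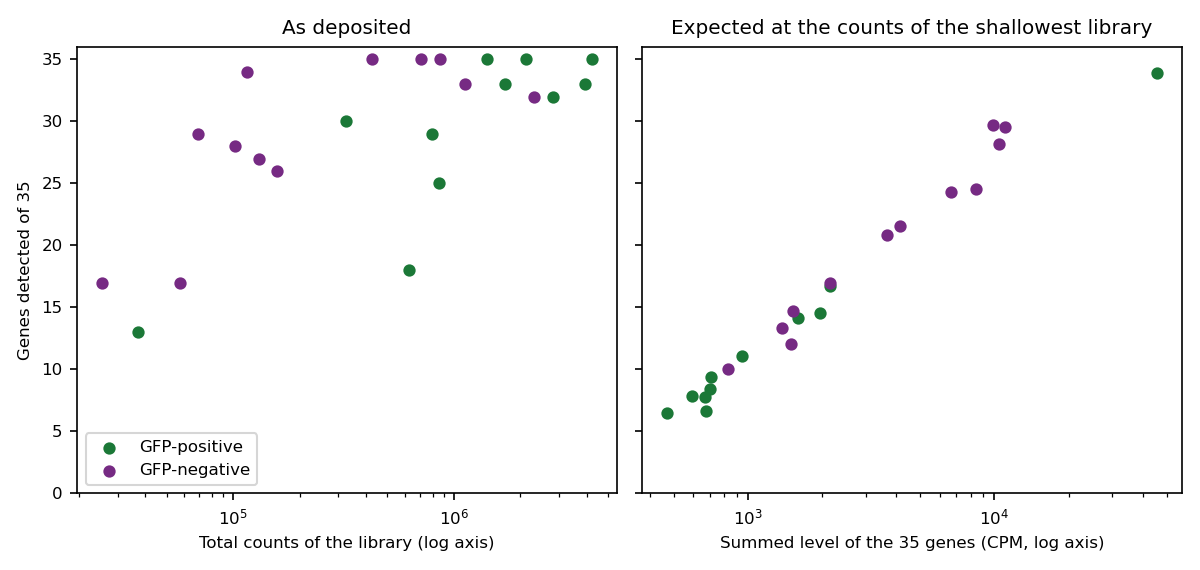
Left, number of the 35 genes with at least 1 count against the library's total counts (log axis); right, the number expected when every library is scaled to 25458 counts, against the summed level (log axis). At matched depth GFP-positive 3 stands at 33.9 genes, the other GFP-positive libraries at 16.7 or fewer and the GFP-negative libraries between 10.01 and 29.7.

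The make-up of the sum also differed. Lyz2, Apoe and Cd14 together gave 25.7% to 49.9% of the summed level in the 10 GFP-positive libraries other than GFP-positive 3, and 46.0% to 64.9% in the GFP-negative libraries. In GFP-positive 3 they gave 61.5%, inside the GFP-negative range. Ctsc, Lgmn, Cd53 and Cx3cr1, chosen like the first trio after their values were seen, gave 20.2% to 58.6% in the same 10 GFP-positive libraries, 4.73% in GFP-positive 3 and 5.77% to 25.5% in the GFP-negative libraries, the highest of these in GFP-negative 6, which shares its identifier with GFP-positive 3. Ctsc was the most abundant of the 35 genes in GFP-positive 2, 4, 7, 8 and 9, where Lyz2 led in GFP-positive 1, 3, 5, 6, 10 and 11. Lyz2 led in every GFP-negative library but GFP-negative 11, where Apoe led.

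**Figure D3:**
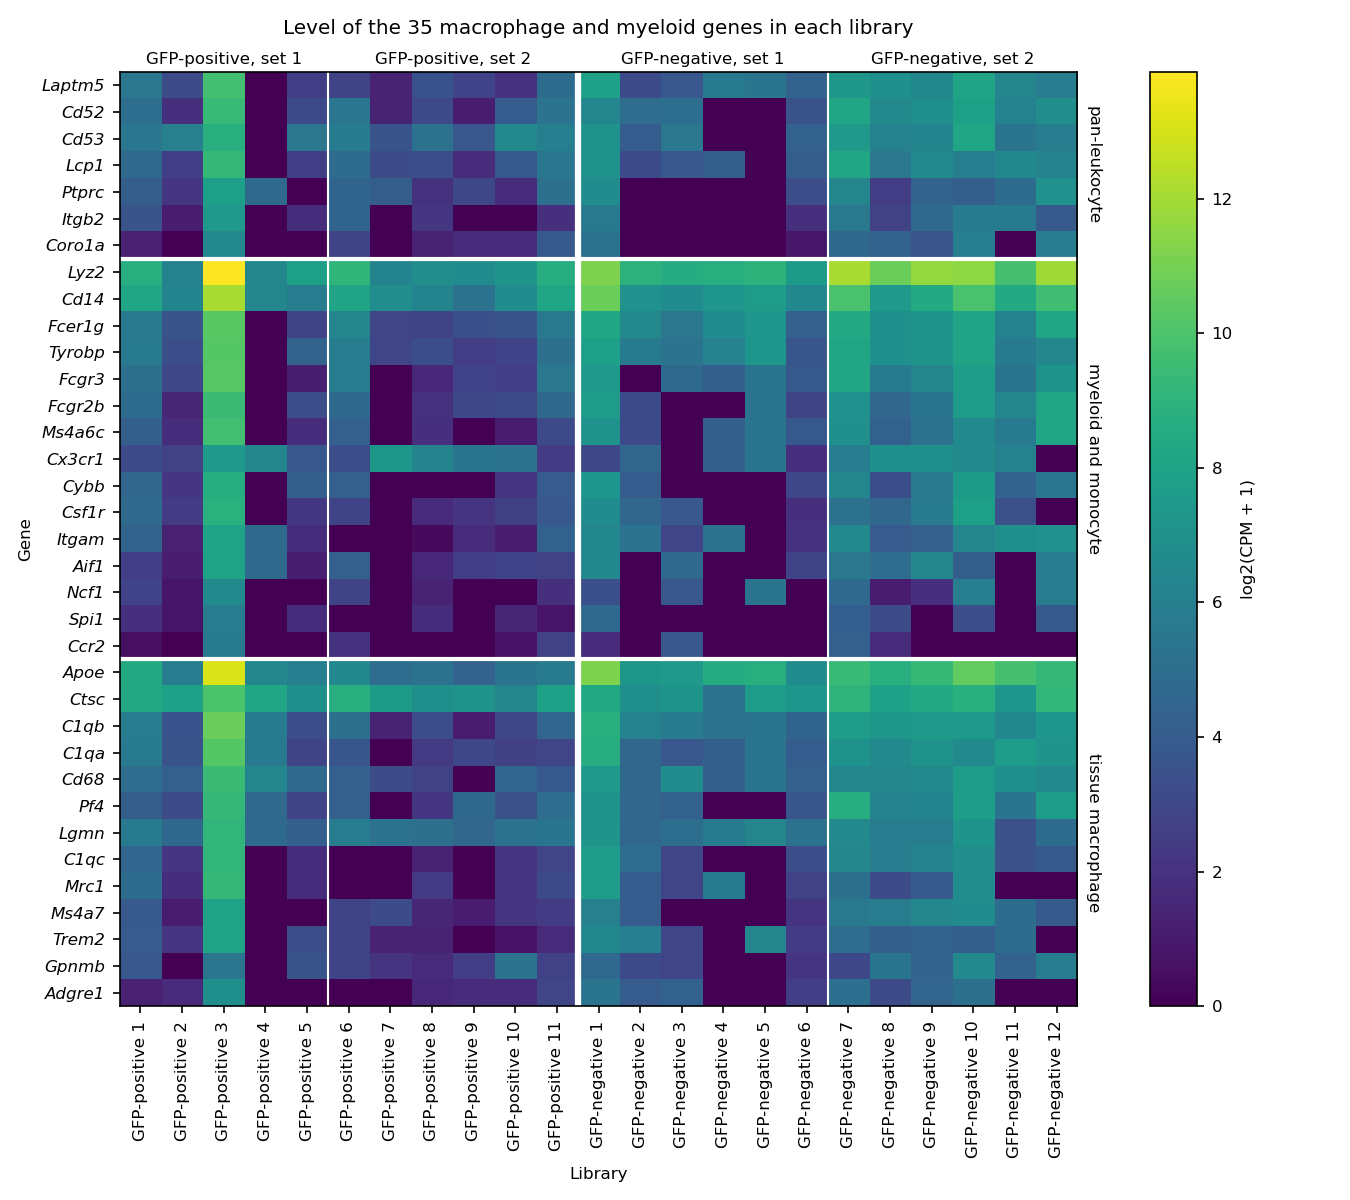
Level of each gene in each library as log2(CPM + 1), with GFP-positive libraries left of GFP-negative ones and thin white lines between the library sets. GFP-positive 3 is the brightest column, at 15123 CPM of Lyz2 and 8790 CPM of Apoe, and the GFP-negative libraries of set 2 are brighter than the GFP-positive libraries of set 2 in most rows.

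The comparison the sort implies asks how the GFP-positive fraction differs from the GFP-negative one. Over all 23 libraries, edgeR's quasi-likelihood test called 0 of the set lower and 0 higher among the 22 of 35 genes that passed its filter on low counts (adjusted p under 0.05 by Benjamini-Hochberg over 6621 genes, of which 0.0151% were called lower). None of the 22 had an unadjusted p under 0.05 either, and their median log2 fold change (GFP-positive minus GFP-negative) was 0.05, beside 0.07 over all tested genes. With library set as a covariate, edgeR again called 0 of the 22 (0.0151% of genes lower), with 19 negative and a median of -0.81. With the shared identifier as a replicate block and GFP-positive 3 kept, all 22 were negative and none passed. In that fit Lyz2 was at -3.035 (SE 0.86) and Apoe at -3.075 (SE 0.88), both with an adjusted p of 0.840 by edgeR. DESeq2 called 9 lower, where 0.347% of all tested genes were, but by its default it had replaced the counts of GFP-positive 3 as outliers for 13 of the 22. With GFP-positive 3 left out, edgeR called 9 of 22 lower and 0 higher (0.227% of 6619 genes lower), with a median of -2.68. These 9 were Laptm5, Lyz2, Fcer1g, Tyrobp, Ms4a6c, Cd68, C1qa, C1qb and Apoe. Apoe, the lipid carrier, had a log2 fold change of 0.49 (SE 1.01, adjusted p = 0.997 by edgeR) with all libraries and -3.11 (SE 0.60, adjusted p = 0.0391 by edgeR) without that one. Lyz2, which encodes lysozyme, was at -0.06 (SE 0.95, adjusted p = 0.997 by edgeR) with all libraries and at -3.06 (SE 0.61, adjusted p = 0.0407 by edgeR) without it. A filter of 10 counts in all keeps all 35 genes. With it and without GFP-positive 3, a combination chosen after seeing the data, 14 of 35 were lower (0.591% of 16586 genes lower), and all 35 had a negative log2 fold change.

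In library set 2 the macrophage genes were lower in the GFP-positive fraction. The summed level was 468.7 to 1965 CPM in its 6 GFP-positive libraries, against 3667 to 10397 CPM in its 6 GFP-negative libraries, a 7.71-fold difference in geometric means with no overlap. edgeR called 16 of the 26 genes that passed the filter lower and 0 higher, where 1.24% of 6952 genes were called lower and 0.0432% higher. The median log2 fold change of the 26 was -3.25 and that of all tested genes 0.07. With the filter of 10 counts in all, 18 of all 35 genes were called lower (1.55% of 14614 genes lower) and all 35 were negative, with a median of -3.12. Fcer1g and Pf4, called lower with the first filter, were not called with this one (adjusted p = 0.0569 and 0.0532 by edgeR). In 12 of the 35, every GFP-positive library of the set lay below every GFP-negative one, a pattern found in 0.486% of 14614 genes; the opposite pattern was found in 0.267% of genes and in 0 of the 35.

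Fibroblast markers moved with the same split. Their summed level was 172.4 to 987.2 CPM in GFP-positive and 1150 to 8864 CPM in GFP-negative libraries of set 2. Of the 8 tested fibroblast markers of 10, 4 were also called lower by edgeR. Over all tested genes, 1.24% were called lower with the first filter and 1.55% with the filter of 10 counts. Epithelial keratins, claudins and Epcam gave 2681 to 7086 CPM in GFP-positive and 2736 to 4883 CPM in GFP-negative libraries of that set, so both fractions held epithelial RNA throughout. Depth moved with the split as well, at 325231 to 3903913 counts in GFP-positive and 69580 to 1124151 counts in GFP-negative libraries. The part of these in the macrophage genes' difference was not tested.

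Among the pan-leukocyte genes, 3 of the 6 that passed the filter were called lower in set 2, beside 1.24% of all tested genes. With the filter of 10 counts 4 of all 7 were, beside 1.55% of all tested genes. Laptm5 (ENSMUSG00000028581, mm10 chr4:130913125-130936141), a lysosomal membrane protein of blood cells, was at 1.596 to 28.9 CPM (median 5.99 CPM) in the 6 GFP-positive libraries and at 57.5 to 275 CPM (median 106 CPM) in the 6 GFP-negative libraries. The groups did not overlap, and the log2 fold change was -3.71 (SE 0.52, adjusted p = 0.000286 by edgeR). Cd52, a small surface glycoprotein of leukocytes, was at 1.17 to 43.1 CPM in GFP-positive and 68.6 to 290 CPM in GFP-negative libraries, again with no overlap (log2 fold change -3.22, adjusted p = 0.0240 by edgeR). Lcp1, an actin-bundling protein, fell by 2.76 on the log2 scale (adjusted p = 0.0118 by edgeR).

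Ptprc, which encodes CD45, the common surface marker of leukocytes, did not pass the test. It was at 2.35 to 34.6 CPM (median 11.5 CPM) in GFP-positive libraries of set 2 and at 4.64 to 129 CPM (median 24.9 CPM) in GFP-negative ones, so the groups overlapped (log2 fold change -1.63, SE 0.73, adjusted p = 0.639 by edgeR). Cd53, a tetraspanin of leukocytes, was at 11.2 to 90.04 CPM in GFP-positive and 39.2 to 301 CPM in GFP-negative libraries of set 2 (log2 fold change -1.42, adjusted p = 0.436 by edgeR). Itgb2, the shared chain of the leukocyte integrins, was at -3.20 with an adjusted p of 0.0709 by edgeR, and passed with the filter of 10 counts (adjusted p = 0.0367). With the identifier as a replicate block Itgb2 was called (adjusted p = 0.00686 by edgeR). Ptprc and Cd53 were not called with that block (adjusted p = 0.345 and 0.386 by edgeR). Coro1a, an actin-binding protein, passed only that filter and was at -2.41 (adjusted p = 0.110 by edgeR).

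Of the myeloid and monocyte genes, 7 of the 11 that passed the filter were called lower in set 2, beside 1.24% of all tested genes. These 7 were Lyz2, Itgam, Fcer1g, Tyrobp, Ms4a6c, Fcgr2b and Aif1. Lyz2 (ENSMUSG00000069516, mm10 chr10:117277331-117282321) was at 76.6 to 538 CPM (median 128 CPM) in GFP-positive and 873 to 4469 CPM (median 3114 CPM) in GFP-negative libraries. Its groups did not overlap, and it fell by 3.66 on the log2 scale (SE 0.62, adjusted p = 0.0156 by edgeR). Fcer1g and Tyrobp encode the small signalling adaptors that serve Fc receptors and Trem2. Both fell, with log2 fold changes of -3.14 and -3.29 (adjusted p = 0.0414 and 0.0103 by edgeR). Ms4a6c, of the MS4A family of membrane proteins, was at 0 to 18.4 CPM in GFP-positive and 18.6 to 302 CPM in GFP-negative libraries (log2 fold change -4.52, adjusted p = 0.00741 by edgeR). The integrin Itgam (CD11b), the inhibitory Fc receptor Fcgr2b and Aif1 (IBA1) also fell, with log2 fold changes of -3.97, -3.46 and -2.96 (adjusted p = 0.0314, 0.0209 and 0.0216 by edgeR).

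Other genes of this group went lower in value without passing. Cd14, a co-receptor for bacterial lipopolysaccharide, was at 34.98 to 301 CPM in GFP-positive and 184 to 955 CPM in GFP-negative libraries of set 2 (log2 fold change -1.96, SE 0.57, adjusted p = 0.232 by edgeR). It did pass in DESeq2 (adjusted p = 0.00244). Cybb, the catalytic subunit of the phagocyte oxidase, and Fcgr3, an activating Fc receptor, were at -3.57 and -3.07 (adjusted p = 0.213 and 0.346 by edgeR). With the identifier as a replicate block Cybb and Fcgr3 were called lower (adjusted p = 0.0227 and 4.47e-06 by edgeR). Cd14 and Cx3cr1 were not called with that block (adjusted p = 0.142 and 0.633 by edgeR). Cx3cr1, the fractalkine receptor, was at 4.23 to 161 CPM in GFP-positive and 0 to 126 CPM in GFP-negative libraries (log2 fold change -0.60, adjusted p = 0.933 by edgeR), and its log2 fold change was -1.26 without GFP-positive 7.

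The defining monocyte and macrophage regulators were scarce in most libraries. Csf1r was at 0 to 12.7 CPM in GFP-positive and 0 to 241 CPM in GFP-negative libraries of set 2, with its highest value in GFP-negative 10, and it was lower with the filter of 10 counts (log2 fold change -3.31, SE 0.69, adjusted p = 0.00344 by edgeR). Spi1 had 14 counts in all over the 6 GFP-positive and 21 over the 6 GFP-negative libraries of set 2, at 0 to 2.56 CPM against 0 to 17 CPM (log2 fold change -2.58, adjusted p = 0.342 by edgeR with that filter). Ccr2 had 10 counts and 15 counts over the same libraries, 13 of the 15 in GFP-negative 7 (log2 fold change -1.58, adjusted p = 0.737 by edgeR with that filter). Ncf1, an organiser of the phagocyte oxidase, was at -3.55 (adjusted p = 0.0504 by edgeR with that filter).

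PU.1 binds the letters GAGGAA, and the promoter windows of several of these genes are shown to let the letters be seen beside the values. The 200 bases before the RefSeq start (GRCm38.p6, 5′ to 3′ on the gene's strand) were searched for GAGGAA or its reverse complement TTCCTC, printed in capitals. Windows were found for 27 of the 35 genes. A match lay in 13 of these 27 (48.1%), beside 21.3% of the 27025 genes in the RefSeq table and 19% of its 32851 windows. Laptm5, C1qb and Lyz2 were called lower in set 2 and Cd53 and Ctsc were not.
Laptm5 (chr4:130913116-130913315, + strand): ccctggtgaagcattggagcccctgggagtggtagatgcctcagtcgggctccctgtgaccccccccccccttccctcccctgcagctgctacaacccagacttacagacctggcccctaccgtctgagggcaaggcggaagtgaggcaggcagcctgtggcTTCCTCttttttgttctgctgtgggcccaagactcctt
C1qb (chr4:136886201-136886400, - strand): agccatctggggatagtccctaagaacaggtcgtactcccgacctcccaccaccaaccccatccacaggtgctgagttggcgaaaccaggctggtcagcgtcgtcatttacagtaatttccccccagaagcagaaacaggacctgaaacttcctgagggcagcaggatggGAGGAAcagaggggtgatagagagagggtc
Lyz2 (chr10:117282273-117282472, - strand): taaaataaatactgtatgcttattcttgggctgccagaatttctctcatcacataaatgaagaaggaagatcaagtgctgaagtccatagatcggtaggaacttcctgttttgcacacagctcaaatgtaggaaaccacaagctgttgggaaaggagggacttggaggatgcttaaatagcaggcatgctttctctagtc
Cd53 (chr3:106790150-106790349, - strand): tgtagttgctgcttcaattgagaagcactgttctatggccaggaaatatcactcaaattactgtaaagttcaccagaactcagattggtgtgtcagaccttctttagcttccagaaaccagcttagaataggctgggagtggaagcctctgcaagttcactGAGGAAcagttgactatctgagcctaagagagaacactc
Ctsc (chr7:88277885-88278084, + strand): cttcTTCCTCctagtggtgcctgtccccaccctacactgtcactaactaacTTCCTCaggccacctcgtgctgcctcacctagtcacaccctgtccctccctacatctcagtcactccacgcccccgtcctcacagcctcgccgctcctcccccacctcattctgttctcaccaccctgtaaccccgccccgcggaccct
Lyz2 had no match in this window. Of the genes called lower in set 2, 6 of 13 with a window held a match, and of those tested and not called, 4 of 8. A match is only a run of letters, and its absence from this window says nothing of the factor.

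The tissue macrophage genes held the smallest adjusted p-values of set 2. Of the 9 that passed the filter, 6 were called lower, beside 1.24% of all tested genes: Apoe, C1qa, C1qb, Ms4a7, Cd68 and Pf4. Apoe (ENSMUSG00000002985, mm10 chr7:19696109-19699188) was at 19.8 to 89.2 CPM (median 38.1 CPM) in GFP-positive and 414 to 1497 CPM (median 640 CPM) in GFP-negative libraries, and it fell by 4.12 on the log2 scale (SE 0.34, adjusted p = 7.58e-08 by edgeR). The genes of complement C1q, made largely by macrophages, lie side by side on chromosome 4. C1qa (mm10 chr4:136895917-136898803) was at 0 to 12.3 CPM in GFP-positive and 93.9 to 196 CPM in GFP-negative libraries (log2 fold change -4.57, SE 0.46, adjusted p = 6.41e-07 by edgeR). C1qb (mm10 chr4:136880129-136886187) was at 1.17 to 33.8 CPM in GFP-positive and 88.2 to 201 CPM in GFP-negative libraries (log2 fold change -3.85, SE 0.52, adjusted p = 0.000238 by edgeR). Neither gene's groups overlapped. C1qc passed only the filter of 10 counts and was lower there by a similar amount (log2 fold change -4.54, SE 0.65, adjusted p = 2.47e-06 by edgeR).

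Ms4a7, Cd68 (a lysosomal glycoprotein of phagocytes) and Pf4 (a chemokine) fell, with log2 fold changes of -3.94, -3.27 and -3.61 (adjusted p = 0.000286, 0.00063 and 0.0281 by edgeR). Trem2, a lipid-sensing receptor of macrophages, was lower with the filter of 10 counts (log2 fold change -3.45, adjusted p = 0.0148 by edgeR). Adgre1, which encodes F4/80, was at 0 to 6.35 CPM in GFP-positive and 0 to 34.4 CPM in GFP-negative libraries of set 2 and did not pass (log2 fold change -2.71, SE 0.83, adjusted p = 0.0827 by edgeR with that filter). Nor did Mrc1, the mannose receptor CD206, at -2.89 (adjusted p = 0.0511 by edgeR with that filter).

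Neither lysosomal protease of the set passed the test in set 2, nor did Gpnmb. Ctsc, which encodes cathepsin C, was at 79.5 to 424 CPM (median 163 CPM) in GFP-positive and 157 to 575 CPM (median 406 CPM) in GFP-negative libraries of set 2, with wide overlap (log2 fold change -0.95, SE 0.37, adjusted p = 0.497 by edgeR). Without GFP-positive 6 it was called lower (log2 fold change -1.28, adjusted p = 0.0437 by edgeR). Lgmn, a lysosomal protease, was at -0.84 (SE 0.43, adjusted p = 0.782 by edgeR) and Gpnmb, a glycoprotein of lipid-laden macrophages, at -1.66 (SE 0.72, adjusted p = 0.599 by edgeR). Gpnmb was called lower without GFP-positive 10 (log2 fold change -3.06, adjusted p = 0.0226 by edgeR). With the identifier as a replicate block Ctsc was called lower (adjusted p = 0.00716 by edgeR). Lgmn and Gpnmb were not called with that block (adjusted p = 0.773 and 0.0811 by edgeR).

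Set against gene length (CPM per kilobase of GENCODE exons, mean of each group's 6 libraries), Lyz2 was the most abundant of the genes, at 174 per kilobase in GFP-positive and 2163 in GFP-negative libraries of set 2. Apoe followed in the GFP-negative fraction, at 20.8 per kilobase in GFP-positive and 365 in GFP-negative libraries, and then Cd14, at 87.3 and 346 in the same order of fractions. The receptor genes Ptprc and Csf1r, defining for leukocytes and macrophages, were far below these.

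**Figure D4:**
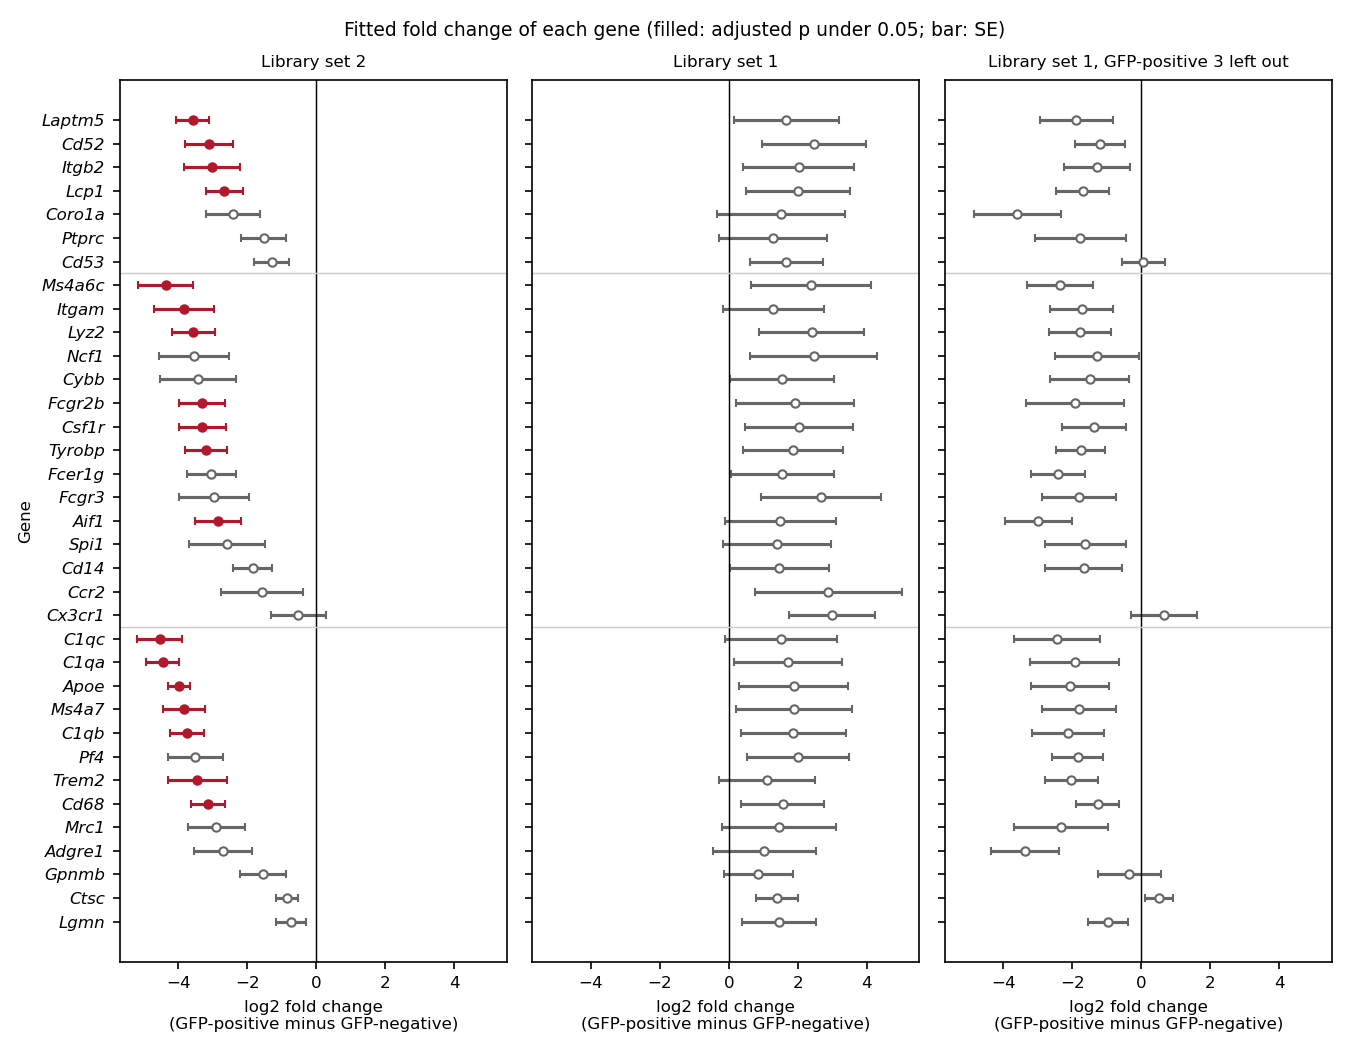
Log2 fold change (GFP-positive minus GFP-negative) of each gene with its SE, from edgeR with the filter of 10 counts in all, for library set 2, library set 1 and library set 1 without GFP-positive 3; filled points have an adjusted p under 0.05. All 35 lie below 0 in set 2, all 35 above 0 in set 1, and 31 of 34 tested below 0 in set 1 once GFP-positive 3 is left out and GFP-negative 1 kept.

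Of the 16 genes called lower in set 2, 9 kept the call whichever of the 12 libraries was left out: Laptm5, Lyz2, Tyrobp, Ms4a6c, Cd68, C1qa, C1qb, Apoe and Ms4a7. Itgam lost it in 8 of 12 such fits, keeping it only without GFP-positive 8, GFP-positive 11, GFP-negative 8 or GFP-negative 9. Fcer1g also lost it in 8, keeping it only without GFP-positive 6, GFP-positive 8, GFP-positive 11 or GFP-negative 11. Pf4 lost the call in 5, without GFP-positive 6, 9 or 10 or GFP-negative 10 or 12. Cd52 lost it in 3 (without GFP-positive 8 or 10 or GFP-negative 10), Fcgr2b in 3 (without GFP-positive 9 or 10 or GFP-negative 10), Aif1 in 3 (without GFP-positive 8 or GFP-negative 7 or 9) and Lcp1 in 1 (without GFP-negative 7, log2 fold change -2.05). Without GFP-positive 11 the log2 fold change of Itgam was -6.18 and that of Laptm5 -4.40, and without GFP-negative 7 that of Pf4 was -2.98. Itgb2 was called lower without GFP-positive 6 (log2 fold change -4.05, adjusted p = 0.00505 by edgeR).

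In library set 1 no gene of the set passed the test in either direction. The summed level was 666.7 to 2145 CPM in GFP-positive 1, 2, 4 and 5 and 45840 CPM in GFP-positive 3, against 832.4 to 2160 CPM in 5 GFP-negative libraries and 11051 CPM in GFP-negative 1. edgeR called 0 of 15 tested genes lower and 0 higher (0% of 5256 genes were called), with none at an unadjusted p under 0.05 and none called by DESeq2. All 15 had a positive log2 fold change, with a median of 1.55. Without GFP-positive 3 the direction turned: 11 of 12 tested genes were negative, with a median of -1.88, and 0 were called by edgeR, where 0.0227% of 4400 genes were called lower, with 3 at an unadjusted p under 0.05. GFP-negative 1 stayed in that fit, and no fit left out both high libraries. Without both, the summed level had a median of 821.1 CPM in GFP-positive and 1490 CPM in GFP-negative libraries, with overlapping ranges. Set 1 held 3 of the 4 libraries under 100000 counts.

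Per library, the leading genes of set 1 show the same 2 high libraries. Lyz2 was at 430, 68.8, 15123, 80.8 and 224 CPM in GFP-positive 1 to 5, and at 190 to 2356 CPM (median 452 CPM) in the 6 GFP-negative libraries. Apoe was at 352, 59.2, 8790, 80.8 and 63.8 CPM in GFP-positive 1 to 5, and at 106 to 2351 CPM (median 283 CPM) in the GFP-negative libraries. C1qa was at 52.4, 10.7, 1192, 53.9 and 6.26 CPM in GFP-positive 1 to 5, and at 12.7 to 405 CPM (median 20.1 CPM) in the GFP-negative libraries. GFP-positive 3 was the highest of all in each of these, GFP-negative 1 the highest GFP-negative one, and the remaining libraries of both fractions overlapped. Ptprc was at 16, 3.56, 228, 26.9 and 0 CPM in GFP-positive 1 to 5, and at 0 to 108 CPM (median 0 CPM) in the GFP-negative libraries, of which 4 had no count. Spi1 was at 2.83, 0.713, 55.7, 0 and 2.5 CPM in GFP-positive 1 to 5, and only GFP-negative 1, at 25.9 CPM, held it among the 6 GFP-negative libraries.

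Among the 15 genes that passed the first filter in set 1, Ctsc, Cd52 and Cd53 had the smallest p, with GFP-positive 3 in the fit. With the filter of 10 counts, Cx3cr1 had the smallest (log2 fold change 3.01, SE 1.25, adjusted p = 0.811 by edgeR), and its log2 fold change was 0.66 there without GFP-positive 3. Ctsc was at 332, 242, 1004, 296 and 120 CPM in GFP-positive 1 to 5, and at 34.7 to 348 CPM (median 151 CPM) in the 6 GFP-negative libraries. Its log2 fold change was 1.29 (SE 0.60, adjusted p = 0.894 by edgeR) with all libraries and 0.41 (SE 0.40, adjusted p = 0.884 by edgeR) without GFP-positive 3. Cd53 was at 42.9, 66.0, 423, 0 and 43.8 CPM in GFP-positive 1 to 5, and at 0 to 136 CPM in GFP-negative libraries, and its log2 fold change of 1.55 became -0.10 without GFP-positive 3 (adjusted p = 0.933 and 0.993 by edgeR). Cd52 was at 31.6, 2.85, 655, 0 and 7.51 CPM in GFP-positive 1 to 5, and at 0 to 82.4 CPM in GFP-negative libraries (log2 fold change 2.38, adjusted p = 0.933 by edgeR). Without GFP-positive 3 it passed only the filter of 10 counts, at -1.19 (adjusted p = 0.896 by edgeR).

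The difference between the library sets was itself tested as an interaction over all libraries. It was called in 0 of 33 tested genes by edgeR, in 0 by DESeq2, and in 0% of 8698 genes by edgeR. Of the 33, 29 had an unadjusted p under 0.05, and the median interaction was -5.06 on the log2 scale. Without GFP-positive 3 the median was -1.43 and 3 genes, Cd68, C1qa and Ctsc, had an unadjusted p under 0.05. Whether the fractions of the 2 library sets differ in these genes was thus not settled by this test.

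GFP-positive 3 carried the whole set at once. It had the highest level of all 23 libraries for 34 of the 35 genes, every one but Gpnmb, and at least 3 times the next GFP-positive library for 32 of 35. Lyz2 was at 15123 CPM in GFP-positive 3 and at 68.8 to 538 CPM in the other 10 GFP-positive libraries. Apoe was at 8790 CPM, against 19.8 to 352 CPM in those 10. Csf1r, Spi1 and Ccr2, scarce in the other GFP-positive libraries, were well counted in GFP-positive 3, with 969, 118 and 110 counts. Adgre1 and Ptprc had 249 and 482 counts in it. Outside the GFP-positive fraction, Csf1r reached 241 CPM in GFP-negative 10. Spi1 was at 55.7 CPM in GFP-positive 3 and at most 2.83 CPM in another GFP-positive library, and Ccr2 at 52.0 CPM and at most 5.64 CPM.

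A few genes stood less far above the other libraries in GFP-positive 3. Cx3cr1 was at 184 CPM in GFP-positive 3, 1.14 times the 161 CPM of the next GFP-positive library. Gpnmb was 1.10 times and Ctsc 2.37 times the next. Cd53 was 4.70 times the next.

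Markers of other cell types in GFP-positive 3 were mostly within the range of the other libraries. Its fibroblast markers summed to 198 CPM, inside the 0 to 2130 CPM of the other GFP-positive libraries of set 1, and its endothelial markers to 41.6 CPM. Its epithelial markers summed to 3149 CPM, the lowest of the 5 GFP-positive libraries of set 1, which reached 7435 CPM. Of 12 T and NK cell markers only Trbc1, Cd4 and Trac had a count in it, and Trbc1 was counted in all 23 libraries. Cd3e, Cd3d, Cd3g, Cd8a, Nkg7, Cd79a and Ms4a1, which define T, NK and B cells, had no count in any of the 23 libraries. Its 10 neutrophil markers summed to 296 CPM, inside the 135 to 603 CPM of all other GFP-positive libraries. Its MHC class II and dendritic cell list was at 1646 CPM, and its macrophage chemokines and cytokines at 10367 CPM, both above all other libraries. Basp1 was at 75.6 CPM in GFP-positive 3, inside the 13.3 to 108 CPM of the other GFP-positive libraries. What gave this library its level was not tested.

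GFP-negative 1 was the other library with all role groups high in set 1. It held 795.6 CPM of pan-leukocyte, 5607 CPM of myeloid and monocyte and 4649 CPM of tissue macrophage genes, where the other 5 GFP-negative libraries of that set reached at most 102, 1218 and 903 CPM. Its sum of 11051 CPM is the highest GFP-negative one and lies close to that of GFP-negative 7 in set 2, at 10397 CPM. Its fibroblast markers summed to 2439 CPM, the highest of the GFP-negative libraries of set 1.

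**Figure D5:**
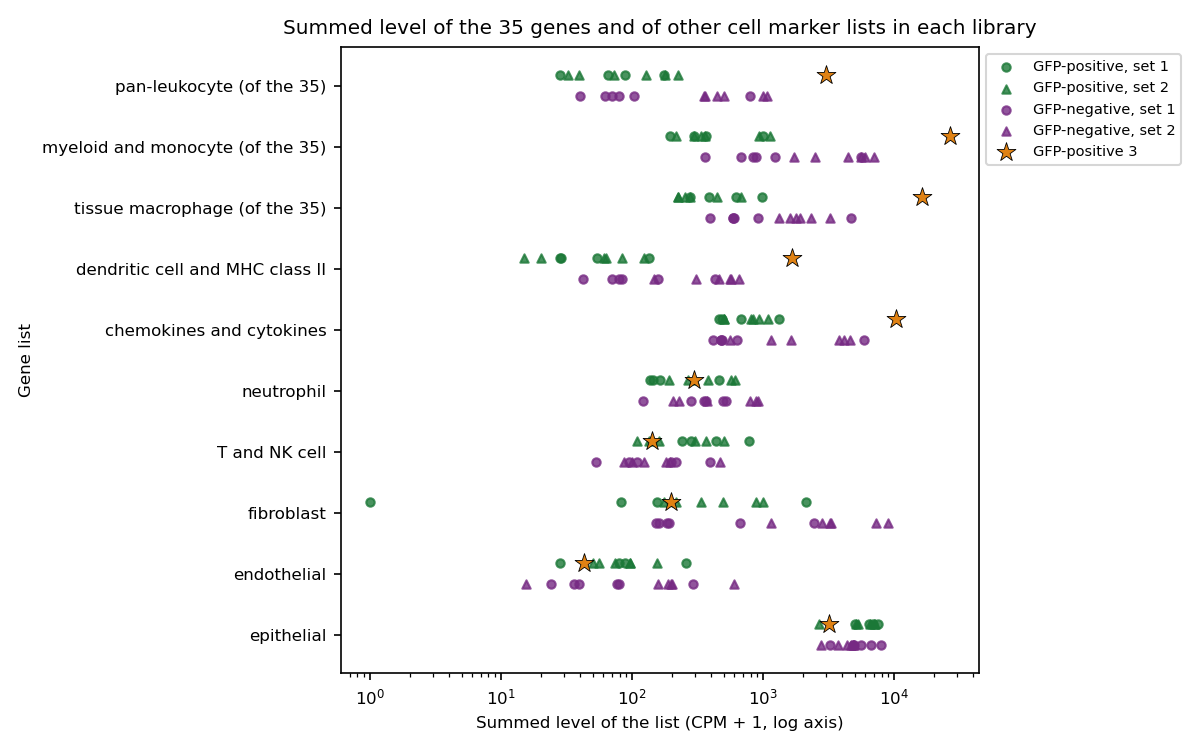
Summed level of each gene list (CPM + 1, log axis) in each library, GFP-positive above GFP-negative within each row, circles for set 1 and triangles for set 2. The star is GFP-positive 3, which lies right of every other library in the macrophage, dendritic cell and chemokine lists and among the other libraries for neutrophil, T and NK cell, fibroblast and endothelial markers.

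Several related lists outside the 35 held genes called lower in set 2. With the filter of 10 counts, where 1.55% of all tested genes were called lower and 0.0479% higher, 8 of 25 tested myeloid surface receptors were called lower and 0 higher (median -2.56, beside 0.11 over all tested genes), among them the complement receptor C5ar1 (log2 fold change -3.61, adjusted p = 0.000494 by edgeR) and the beta-glucan receptor Clec7a (-3.18, adjusted p = 0.00579). Of 20 signalling and oxidase genes, 3 were called lower. The MHC class II genes H2-Aa, H2-Ab1 and H2-Eb1 and their chaperone Cd74 were all called lower, the 4 called of 7 tested in the dendritic cell list. Of 20 lysosome and lipid genes, 3 were called lower (Ctss, Fabp5 and Lpl), with a list median of -0.52. Among ligands of the receptors Csf1r, Ccr2 and Cx3cr1, the chemokines Ccl2, Ccl7 and Ccl12 were called lower, 3 of 6. Of 14 macrophage chemokines and cytokines, Ccl7 and Ccl12 were called lower, and of 7 classical monocyte genes Vcan was. The summed level of the classical monocyte list was 1234 ± 570 CPM in GFP-positive and 1120 ± 300.2 CPM in GFP-negative libraries of set 2 (SD, n = 6 each), a difference smaller than the spread. None of 9 neutrophil, 8 endothelial, 7 mast cell, 4 erythrocyte, 3 T and NK cell or 2 B cell markers tested was called by edgeR in either direction, and of 11 epithelial markers Krt18 was called higher with this filter (log2 fold change 0.94, adjusted p = 0.0341 by edgeR).

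Over the 23 libraries, the tested genes outside the set whose level ranked most like the summed level of the 35 were Ccl7, a monocyte-attracting chemokine (Spearman rho 0.898), Plek (rho 0.888), the cathepsin Ctss (rho 0.868), Lrp1 (rho 0.865) and the cytokine Il1b (rho 0.863). H2-Aa, Cd74, Cd83, Wfdc17 and Ccl4 followed, down to 0.818. Within the set, Cd14 and Lyz2 stood nearest (rho 0.951 and 0.949, each being part of the sum) and Cx3cr1 farthest of the 22 tested (rho 0.157, rank 1271). These values share libraries, depth and GFP-positive 3, and describe these 23 libraries only.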

How the data were processed

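The deposited table holds expected counts per gene for 23 libraries, estimated with Salmon 1.3.0 against mm10 per the submitters' processing notes; values were whole numbers as deposited, so no rounding was needed. The sources used here do not give its options or annotation. Because Salmon shares reads out among similar transcripts, counts of close relatives such as Fcgr2b and Fcgr3 are uncertain. Groups came from the GFP labels. All 35 gene identifiers were in GENCODE M21, which gave coordinates and exon lengths. Totals were 25458 to 4238877 counts per library; floors (3 counts) and the 95% interval cover counting error only, as the labels mention no molecular identifiers for these poly(A)-selected, strand-specific libraries.

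Counts were tested in R 4.3.3 with edgeR 4.0.16 over all libraries, within each library set, and as an interaction. Settings were scaling by TMM, a filterByExpr filter on the GFP groups, a robust quasi-likelihood fit and Benjamini-Hochberg at 0.05 over all tested genes. For the interaction the filter went by GFP group and library set together, so it kept more genes than the fit over all libraries. The code was run on simulated counts with the same spread for every gene and no outlying library or library set effect. That run does not show how the fits perform on data like these. The SE of an edgeR fold change is its size over the square root of the F statistic. CPM values use library totals without TMM. Alternatives were RLE scaling, filters of 10 counts and of 1 count in all, DESeq2 1.42.0, leaving out libraries, and a replicate block. Figures used matplotlib.

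The 35 genes, the role groups and the other lists were chosen with earlier results of these data known, so counts over them are descriptions. Genes named with per-library values were the 2 most abundant of each role group, those called over all libraries, the 3 with the smallest p in each library set, and Ptprc, Csf1r, Spi1, Adgre1 and Ccr2; the others are given by ranges or fitted values. Promoter windows come from RefSeq (GRCm38.p6), which listed 27 of the 35 genes. No pair of libraries within a group agreed within sampling noise over 121 pairs (lowest chi-square per degree of freedom 2.66), so none was counted as a repeat run of the same library. This check cannot find a second library made from the same tumour, since such a library can differ by more than sampling noise. Some library names carry a suffix that the labels do not explain. The 2 GFP-positive libraries that share an identifier were counted as separate libraries in the fits over all libraries without a block.
All 23 count columns matched a library, so 0 columns were left out. RLE scaling, DESeq2, both filters, single libraries and the block were run as other settings, and 3 combinations were chosen after seeing the data: the block with the filter of 10 counts, that filter without GFP-positive 3, and detection at 3 counts without scaling to equal depth. Results for a list of myeloid transcription factors outside the 35 genes are not reported here.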

Additional observations from a re-analysis of the deposited data

Results flagged for a closer look

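A library was singled out where it lay far from the others of its fraction and library set (Dixon's test at the 95% level). The test assumes normally distributed values, for which chance flags about 1 in 20 groups. CPM values here are skewed, so that rate need not hold. Such a library was found in 37 of 72 groups tested, and many of the genes move together. GFP-positive 3 accounted for 18, GFP-negative 1 for 14, GFP-positive 11 for 2, and GFP-negative 3, 7 and 10 for 1 each.

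GFP-positive 3 lay far above the other GFP-positive libraries of set 1 in the summed level of the 35 genes (45840 CPM) and in its pan-leukocyte (3014 CPM), myeloid and monocyte (26459 CPM) and tissue macrophage (16366 CPM) parts. It did so for Lyz2 at 15123 CPM, Apoe at 8790 CPM, Cd14 at 4295 CPM, C1qb at 1656 CPM, C1qa at 1192 CPM and Ctsc at 1004 CPM. The same held for Laptm5 at 837.7 CPM, Cd52 at 655 CPM, Csf1r at 457.6 CPM, Cd53 at 423.1 CPM and Ptprc at 227.6 CPM, and for Adgre1 at 117.6 CPM, Spi1 at 55.72 CPM and Ccr2 at 51.95 CPM.

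GFP-negative 1 lay far above the other GFP-negative libraries of set 1 in the summed level (11051 CPM) and in the pan-leukocyte (795.6 CPM), myeloid and monocyte (5607 CPM) and tissue macrophage (4649 CPM) parts. By gene this held for Lyz2 at 2356 CPM, Apoe at 2351 CPM, Cd14 at 1718 CPM, C1qb at 430.7 CPM and C1qa at 404.9 CPM. It also held for Laptm5 at 249.5 CPM, Cd53 at 136.5 CPM, Ptprc at 108.3 CPM, Csf1r at 105.9 CPM and Spi1 at 25.89 CPM.

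In set 2, GFP-positive 11 stood out for Laptm5 at 28.91 CPM and Adgre1 at 6.346 CPM, GFP-negative 10 for Csf1r at 240.9 CPM and GFP-negative 7 for Ccr2 at 18.41 CPM. In set 1, GFP-negative 3 stood out for Ccr2 at 12.71 CPM, which rests on 2 counts.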

How the results depend on the processing

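In set 2 the direction of all 26 tested genes held under every alternative run, and the count called lower, 16 in the fit reported, ran from 11 to 19 with single libraries left out (11 without GFP-negative 10). All genes called in set 2, 89 in the fit reported, came to 234 with the filter of 10 counts, 375 with no filter beyond 1 count and 142 with DESeq2, and to 65 to 118 with single libraries left out. Over all libraries 1 gene was called; DESeq2 called 24 and the filter of 10 counts without GFP-positive 3 called 109, and leaving out single libraries gave 0 to 16. Of the 35 genes, 0 were called lower there, against 9 by DESeq2, 14 by that filter without GFP-positive 3, and 0 to 9 with single libraries left out (9 without GFP-positive 3). In set 1, 0 genes were called, against 6 by DESeq2, 2 with the filter of 10 counts without GFP-positive 3, and 0 to 6 with single libraries left out. The interaction called 0 genes, against 2 with the filter of 10 counts, 1 with no filter and 2 by DESeq2. Single libraries left out gave 0 to 20 genes and 0 to 1 of the 35 (20 and 1 without GFP-negative 1).

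The log2 fold change of Lyz2 over all libraries (-0.06) was 0.10 with the filter of 10 counts, 0.0678 with no filter, 0.0144 without libraries under 100000 counts and 0.0744 without GFP-positive 7, and -3.06 to 0.17 with single libraries left out. With the identifier as a replicate block, the log2 fold change of Lyz2 over all libraries was -3.035 (SE 0.86, adjusted p = 0.840 by edgeR). That of Apoe (0.49) was -2.88 by DESeq2, -1.16 with library set as a covariate, -2.93 with the filter of 10 counts without GFP-positive 3, and -3.11 to 0.88 with single libraries left out. Cd52 in set 1 (2.38) was at -1.19 with the filter of 10 counts without GFP-positive 3, and Cd53 ran from -0.10 to 2.79. The difference of mean log2 summed levels ran from -1.999 to -1.34 over all libraries, -1.01 to 0.59 in set 1 and -3.19 to -2.77 in set 2 with single libraries left out. The causes were not tested.

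The median number of the 35 genes seen at 25458 counts was 9.38 in GFP-positive and 21.2 in GFP-negative libraries. Without scaling to equal depth it was 32 in GFP-positive and 30.5 in GFP-negative libraries, and 29 and 27 when 3 counts were required. With 3 counts required at 25458 counts it was 2.60 in GFP-positive and 9.16 in GFP-negative libraries, and at 100000 counts, without shallower libraries, 17.04 and 29.7. Depth limits what can be said of Spi1, Ccr2, Csf1r and Adgre1, whose floors reach 118 CPM.

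Shared identifiers do not pair the libraries by the labels. The correlation of deviations within an identifier was -0.224 for the one joining GFP-positive 3 to GFP-negative 6. For all other identifiers it was positive, from 0.0470 to 0.404. Within a title number it ran from -0.171 to 0.404, with several values of each sign. With the identifier as a replicate block, all libraries gave 2 genes called and 0 of the 35 (22 of 22 tested negative, 15 at an unadjusted p under 0.05, median -2.69). With the filter of 10 counts the block called 81 genes, 2 of them among the 35. With the first filter and without GFP-positive 3 it called 89 genes, 16 of them among the 35. The title number as a block gave 0. In set 2 the block called 140 of 6952 genes and 20 of the 26 tested macrophage genes. Itgb2, Cybb, Fcgr3 and Ctsc were called there and not without the block (adjusted p = 0.00686, 0.0227, 4.47e-06 and 0.00716 by edgeR). With the filter of 10 counts it called 278 of 14614 genes and 24 of the 35. Set 1 gave 0, and 1 gene with that filter. Apoe over all libraries was at -3.08 with the identifier block, -2.95 with the filter of 10 counts added, -3.49 without GFP-positive 3 and -2.87 with the title number as a block.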
